A study of Mus musculus with 24 samples.

Results

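The cytosolic ribosomal protein genes were taken as all protein-coding genes whose symbol follows the Rpl or Rps naming pattern, with Rplp0, Rplp1, Rplp2 and Rpsa included and the Rps6k kinases left out. The rule used names only and found 83 of the 53465 genes in the table, 51 with large subunit (Rpl) names and 32 with small subunit (Rps) names. The libraries came from mice that carry a bacterial artificial chromosome in which the yellow fluorescent protein Venus, a variant of GFP, stands in place of the coding region of the guanylin gene Guca2a. The line descends from a single founder, backcrossed to C57Bl6J, and positive and negative cells both carry the transgene. Epithelial cells were sorted by fluorescence into Venus-positive (GFP positive) and Venus-negative (GFP negative) populations after dead cells, debris and CD45-positive leukocytes had been gated out. Total RNA libraries were sequenced from duodenum, jejunum, ileum and colon with rectum, 3 per group, in 8 groups and 24 libraries. Per the study's design text the triplicates came from 3 different mice, so libraries of different sorts and regions may share a mouse. The labels tie no library to a given mouse and give no ages or treatments, and the fits below treat all 24 libraries as independent, so their p-values measure the spread between these libraries.

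The ribosome translates mRNA into protein, and each of its subunits is a scaffold of ribosomal RNA that carries a set of small, mostly basic proteins. Cells make these proteins in matched amounts, partly because their mRNAs share a pyrimidine-rich start, the 5′ terminal oligopyrimidine (TOP) tract, through which growth signalling controls their translation. In the intestinal epithelium, the dividing cells of the crypt are known for high ribosome production, whereas cells that leave the crypt differentiate and stop dividing.

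The TOP tract was looked for in the RefSeq start sites of the members (GRCm38.p6), because it is the sequence feature that this family shares and the rule did not use it. A start was counted as TOP-like when its first base was C and at least 4 pyrimidines (C or T) followed. The table held 75 start sites of 63 members, and 13 of them (17.3%) were TOP-like, against 2.51% of all 32851 start sites. The 10 sequences printed here run from 10 bases before the first base of a RefSeq start site to 19 bases after it, with the TOP-like tract in capitals. They show 6 named members with a tract first and then, without one, the parent gene Rpl22 and the variant paralogs Rpl22l1, Rpl7l1 and Rps27l, whose ratios to their parent genes are described further on. Rps21, Rpl22 and Rps27l each have another RefSeq start that is not TOP-like. Of the starts of Rpl22, the one shown is that nearest to the start of the gene in the annotation used for its position, and the other lies upstream. The variant paralogs Rpl3l, Rpl10l and Rpl39l, which were not tested, had no TOP-like start either.
Rps6 (chr4:86857348-86857377, minus strand): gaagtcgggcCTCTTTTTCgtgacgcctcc
Rps21 (chr2:180257369-180257398, plus strand): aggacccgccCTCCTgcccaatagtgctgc
Rps27 (chr3:90213629-90213658, minus strand): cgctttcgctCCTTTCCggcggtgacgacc
Rpl28 (chr7:4792955-4792984, plus strand): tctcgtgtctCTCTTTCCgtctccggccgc
Rpl38 (chr11:114668570-114668599, plus strand): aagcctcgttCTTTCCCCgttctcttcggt
Rplp2 (chr7:141447641-141447670, plus strand): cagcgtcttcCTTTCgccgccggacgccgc
Rpl22 (chr4:152325716-152325745, plus strand): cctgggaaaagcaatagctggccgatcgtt
Rpl22l1 (chr3:28805498-28805527, plus strand): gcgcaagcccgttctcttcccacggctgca
Rpl7l1 (chr17:46782637-46782666, minus strand): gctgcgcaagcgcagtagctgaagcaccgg
Rps27l (chr9:66946076-66946105, plus strand): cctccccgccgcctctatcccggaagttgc

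An annotated start a few bases away from the true one would miss the tract, and a C followed by 4 pyrimidines anywhere in the 25 bases from 10 before the start occurred in 54.7% of the members' start sites and 30.7% of all start sites. Other motifs were searched on both strands in the 300 bases around each start. CCGGAAG, the core bound by ETS factors such as GABP, was found in 36.0% of the members' windows and 8.86% of all windows. AAGATGGC, the core of the YY1 site, was found in 10.7% against 2.75%, and GGGCGG, the GC box, in 60.0% against 35.7%. CACGTG, the E box bound by Myc, occurred in 10.7% against 7.15%, and TATAAA, the TATA box, in 9.33% against 13.6%. These matches are descriptions of the windows and not of bound sites.

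Total counts on genes ran from 7458616 to 23063124 per library. The share of these on mitochondrially encoded genes was high, from 32.3% to 80.7%, and was lower in Venus-positive than Venus-negative cells in the small intestine (38.6% ± 7.34 and 71.2% ± 6.0 in duodenum, SD, n = 3 each) but not in the colon (73.1% ± 4.67 and 72.7% ± 7.72). Guca2a itself, whose promoter drives the reporter, averaged 285 CPM (counts per 1000000 TMM-scaled counts) in Venus-positive and 5.28 CPM in Venus-negative duodenum, 153 and 24.5 CPM in jejunum, 191 and 26.2 CPM in ileum and 612 and 94.8 CPM in colon. The summed level of 8 goblet cell markers was higher in the positive cells of all 4 regions, and that of 10 leukocyte markers lay between 1.33 and 31.4 CPM in every library. In duodenum the summed level of the leukocyte markers was higher in Venus-positive cells (12.6 to 31.4 CPM) than in Venus-negative cells (1.33 to 10.4 CPM). Not every marker followed the sum. Ptprc averaged 0.075 CPM in Venus-positive and 0.49 CPM in Venus-negative duodenum and Cd3e 0.188 and 0.166 CPM, and neither was called. Of the 8 tested, 1 was called higher there, where 8.88% of all tested genes were. In the other 3 regions the ranges overlapped. In jejunum 0 were called higher and 1 lower, where 18.3% and 25.6% of all tested genes were. In ileum 1 was called higher and 2 lower, where 17.9% and 20.6% of all tested genes were. In colon 0 were called in either direction. The part of the leukocyte markers in the results below was not tested.

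Ribosomal protein genes were lower in Venus-positive cells of all 4 regions, by a size that depended on the region. As a share of the counts on nuclear protein-coding genes, the 83 genes took 1.16%, 1.67% and 1.17% in the 3 Venus-positive duodenal libraries against 4.82%, 5.04% and 4.38% in the Venus-negative ones. In jejunum they took 0.252%, 0.217% and 0.479% against 5.83%, 4.01% and 3.98%. In ileum the shares were 0.776%, 0.437% and 0.514% against 3.03%, 2.63% and 4.98%. In colon they were 1.61%, 1.58% and 2.51% against 3.62%, 4.79% and 5.04%. Every Venus-positive library lay below every Venus-negative library of its region, and the jejunal positive cells were the lowest group of the study. In these bulk samples, fewer cells with many ribosomal protein mRNAs and less of these mRNAs per cell cannot be told apart.

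**Figure D1:**
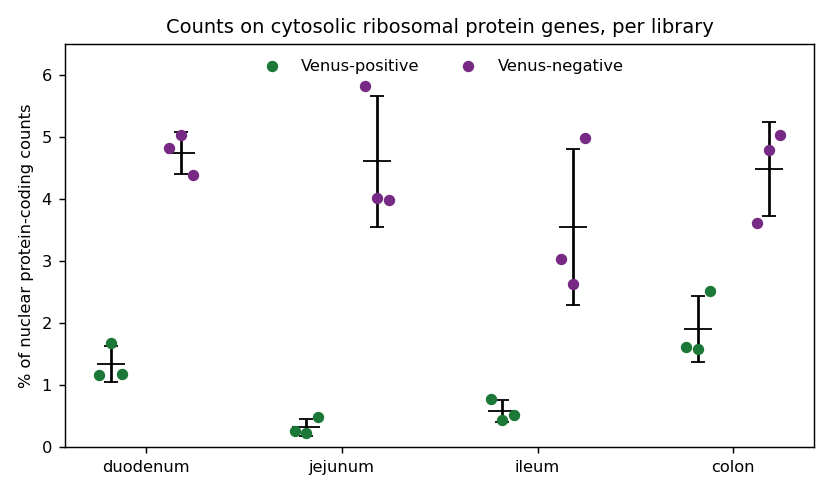
Share of the counts on nuclear protein-coding genes (%) taken by the 83 cytosolic ribosomal protein genes, for each region and sort. Points are libraries and bars are the mean ± SD of 3; the positive libraries lie between 0.217% and 2.51% and the negative ones between 2.63% and 5.83%.

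The ratio of the mean share in negative cells to that in positive cells was 3.55 ± 0.816 (propagated SD, n = 3 per group) in duodenum, 14.6 ± 7.36 in jejunum, 6.16 ± 2.89 in ileum and 2.36 ± 0.767 in colon. The libraries carried 1 of 2 second index sequences, D501 or D502, and within D501 and D502 the ratio was 3.48 and 3.73 in duodenum, 21 and 8.31 in jejunum, 3.9 and 8.0 in ileum and 2.24 and 2.4 in colon. Because the sorts did not overlap, any split of these libraries gives ratios above 1, and the values for D502 in duodenum and jejunum and for D501 in ileum and colon rest on 1 library per sort. With all counts on genes as the denominator, mitochondrial ones included, the ratios were smaller, at 1.69, 7.22, 3.8 and 2.03, and the groups still did not overlap in any region.

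Of the 83 genes, 79 passed the filter on low counts and were tested among 15044 genes with edgeR's quasi-likelihood test and Benjamini-Hochberg adjustment. The 4 left out were Rpl24 with 67 counts over all libraries, Rpl3l with 13, Rpl10l with 6 and Rpl39l with 0, where a count of 0 allows up to 3 counts, or 0.106 to 0.36 CPM, in a library. Rpl3l, Rpl10l and Rpl39l are variant paralogs known from muscle and testis, whereas Rpl24 is a core protein of the large subunit.

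In duodenum, 46 of the 79 genes fell in Venus-positive cells, or 58.2%, where 8.08% of all tested genes did. In jejunum 72 of 79 fell (91.1%), where 25.6% of all genes did, and in ileum 72 of 79 fell, where 20.6% of all genes did. In colon 18 of 79 fell (22.8%), where 3.8% of all genes did. None of the 79 rose in any region by edgeR at adjusted p of 0.05, none was higher at an unadjusted p under 0.05 and none rose by DESeq2, whereas 8.88%, 18.3%, 17.9% and 9.31% of all tested genes rose in duodenum, jejunum, ileum and colon. The count in duodenum dropped to 15 without Venus-positive replicate 1, 18 without Venus-positive replicate 3 and 21 without Venus-negative replicate 2, and was 8 when libraries were scaled by their total alone. The count in colon dropped to 4 without Venus-positive replicate 1, 3 without Venus-positive replicate 2 and 7 without Venus-negative replicate 3, and rose to 37 with DESeq2.

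The median log2 fold change of the 79 genes was −1.26 in duodenum (2.4-fold lower), −3.19 in jejunum (9.15-fold lower), −2.05 in ileum (4.15-fold lower) and −1.01 in colon (2.01-fold lower). The median over all tested genes was −0.16, −0.28, −0.27 and 0.00 in the same order. The fold change was below 0 for 78 of the 79 genes in duodenum, for all 79 in jejunum and ileum and for 77 in colon. When libraries were scaled by their total alone, the median over all genes moved by 0.43 in duodenum and 0.30 in jejunum, and the members' median moved with it, to −0.84 and −2.85. Scaling shifts all genes of a comparison nearly alike, so the gap between these medians says nothing of stability.

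**Figure D2:**
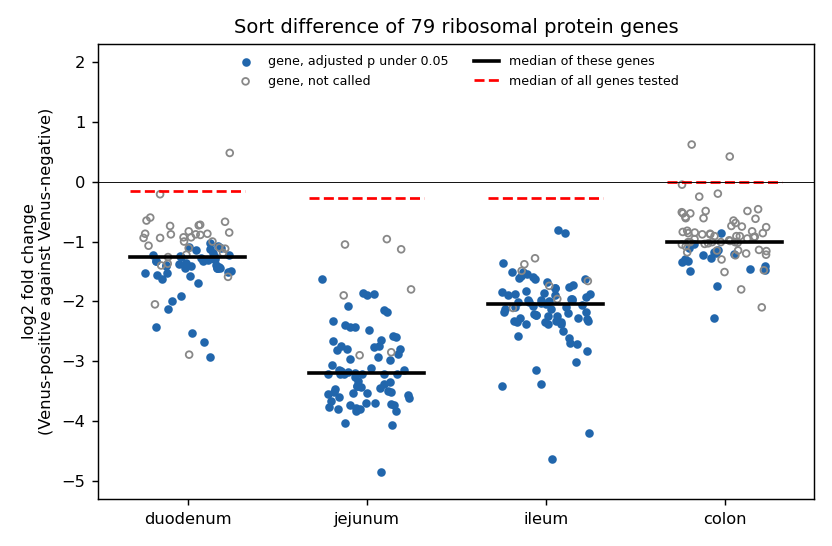
Log2 fold change of each of the 79 tested ribosomal protein genes, Venus-positive against Venus-negative cells, by region, with filled points for adjusted p under 0.05. The black line is their median (−3.19 in jejunum, −1.01 in colon) and the dashed red line the median of all 15044 tested genes.

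Without regard to the fit, the CPM of every Venus-positive library lay below that of every Venus-negative library for 69 of the 79 genes in duodenum, 75 in jejunum, 77 in ileum and 39 in colon, where 21%, 29.9%, 30.1% and 11.9% of all tested genes did so. The jejunum gave the lowest fold change of the 4 regions for 66 of the 79 genes. In 14 genes the fall passed the test in all 4 regions, among them Rpl5, Rpl13a, Rpl22, Rps2 and Rpsa, as it did for 227 of the 15044 genes. The 7 genes that did not pass the test in jejunum were Rpl10, Rpl23a, Rpl28, Rpl36, Rpl36a, Rpl38 and Rps16, each with at most 800 counts over all 24 libraries.

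Over all 79 genes the SD of the log2 fold changes was 0.53 in duodenum, 0.73 in jejunum, 0.60 in ileum and 0.45 in colon. Among the 53 genes with a mean of at least 100 counts per library, it was 0.27, 0.57, 0.36 and 0.30, beside a median standard error of a single gene of 0.38, 0.41, 0.39 and 0.37. The SD was above that error in jejunum alone. The error also holds spread between libraries that the genes can share, so this comparison does not show whether they changed alike. The median was alike in both subunits, at −1.27 for the 32 small subunit genes and −1.26 for the 47 tested large subunit genes in duodenum, −3.19 for both in jejunum, −2.10 and −2.01 in ileum and −0.98 and −1.01 in colon. Genes with a TOP-like first base gave medians of −1.37, −3.06, −2.09 and −0.84 (13 genes), and those with RefSeq starts but no such base −1.25, −3.22, −2.03 and −1.02 (46 genes).

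The counts were spread very unevenly over the members, with 59.1% of their 2254941 counts on the 10 highest genes. Only uniquely mapped reads were counted, and many processed pseudogenes resemble ribosomal protein mRNAs. Of the 50-base windows along a member's mRNA, a median of 42.6% occurred in the transcripts of no other annotated gene, from 1.35% in Rps27 to 100% in genes such as Rpl3l and Rpl39l. This share and the total count of a gene had a Spearman correlation of 0.418 across the 83 genes. How much of a gene's level the uncounted reads take was not tested. The fold changes followed it little, with Spearman values from −0.152 to 0.181 over the 79 genes in the 4 regions, and genes with at least 50% unique windows (28 tested) had medians of −1.24, −3.25, −1.97 and −0.97. Correlations across genes that share libraries are descriptions. Reads on 289 pseudogenes named after members summed to 59.6 ± 21.9 CPM in Venus-positive and 123 ± 9.13 CPM in Venus-negative duodenum, 12.9 ± 6.16 and 116 ± 25.5 CPM in jejunum, 21.6 ± 5.12 and 78.3 ± 27.7 CPM in ileum and 55.4 ± 18.1 and 98.8 ± 20.8 CPM in colon (SD, n = 3 each). The groups overlapped in colon and not in the other 3 regions.

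Per kilobase of mRNA, the level of the tested genes ranged from 0.316 CPM for Rps16 to 1036 CPM for Rplp1, with a median of 22.0 CPM. The highest per kilobase were Rplp1, Rpl34, Rpl8 and Rps14, followed by Rps3 and Rpl22 at the same 422 CPM. Per kilobase of unique windows the order changed, to Rplp1, Rpl34, Rps28, Rps14 and Rpl41. Of these genes Rpl8 (92.1% unique windows) and Rps3 (97.0%) were nearly free of shared sequence.

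Rps3 (ENSMUSG00000030744, chr7:99477896-99483738, minus strand) lies at the mRNA entry of the small subunit and also acts in DNA repair. Its CPM in jejunum was 122, 81.2 and 194 in Venus-positive and 1924, 1249 and 1193 in Venus-negative libraries, an 11.0-fold difference (log2 fold change −3.46 ± 0.39 SE, adjusted p = 1.26e-07). In duodenum it was 526, 834 and 408 against 1448, 1676 and 1318 (−1.33 ± 0.36, adjusted p = 0.0116). The groups did not overlap in either region. In ileum the values were 276, 174 and 194 against 719, 692 and 1396, and in colon 450, 460 and 717 against 873, 1237 and 1178, where the difference of −1.01 ± 0.36 missed the threshold (adjusted p = 0.0609).

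Rpl8 (ENSMUSG00000003970, chr15:76904078-76906314, plus strand), a protein close to the catalytic centre of the large subunit, was at 68.1, 48.1 and 166 CPM in Venus-positive and 936, 598 and 1092 CPM in Venus-negative jejunum (−3.22 ± 0.44, adjusted p = 1.08e-06). Its fall was smaller in ileum (−2.13 ± 0.42, adjusted p = 0.000162) and duodenum (−1.14 ± 0.40, adjusted p = 0.0498). In colon the positive libraries were at 264, 266 and 449 CPM and the negative ones at 396, 667 and 904 CPM, so that the groups overlapped.

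The P stalk, formed by Rplp0, Rplp1 and Rplp2, recruits elongation factors to the ribosome. Rplp1 was at 72.1, 52.0 and 151 CPM in Venus-positive and 1078, 624 and 839 CPM in Venus-negative jejunum (−3.21 ± 0.40, adjusted p = 3.25e-07). Rplp0 (−3.27 ± 0.41) and Rplp2 (−3.19 ± 0.44) fell by nearly the same amount there. In colon the 3 genes had log2 fold changes of −0.91, −1.01 and −1.01 for Rplp1, Rplp0 and Rplp2, and none passed the test (adjusted p = 0.102, 0.0744 and 0.1).

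**Figure D3:**
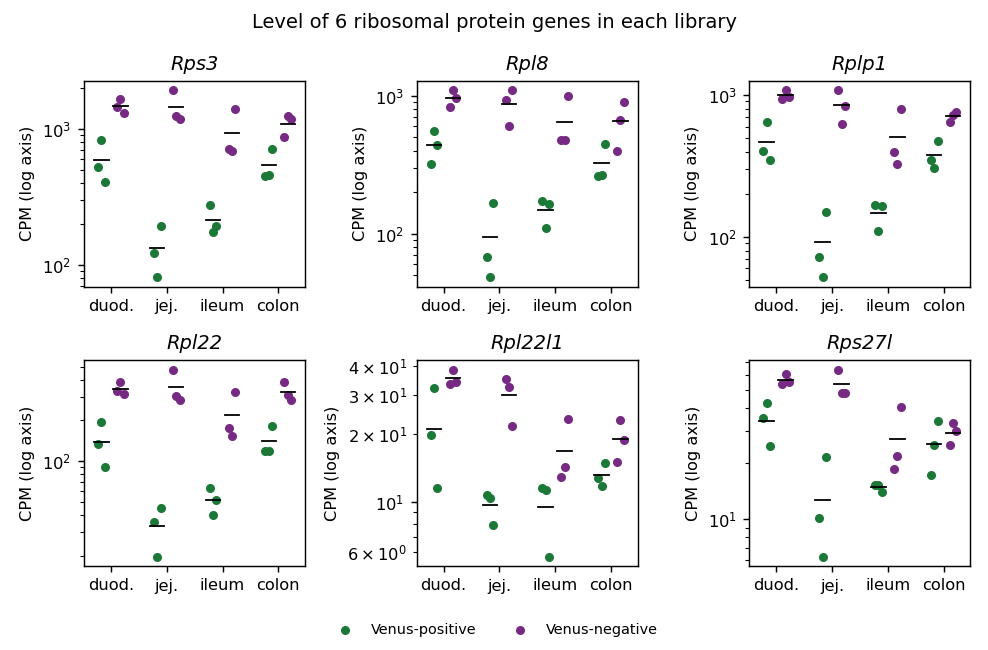
CPM (log axis) of Rps3, Rpl8, Rplp1, Rpl22, Rpl22l1 and Rps27l in each library, by region and sort, with lines at the group means. In jejunum the positive libraries of Rps3 lie between 81.2 and 194 CPM and the negative ones between 1193 and 1924 CPM.

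Rpl5 and Rpl11 form a particle with 5S ribosomal RNA and are known to bind Mdm2 when ribosome assembly fails. Rpl5 fell in all 4 regions, by log2 fold changes of −1.57 ± 0.45 in duodenum, −3.78 ± 0.51 in jejunum, −2.02 ± 0.46 in ileum and −1.74 ± 0.46 in colon (adjusted p = 0.0166, 1.03e-06, 0.000784 and 0.0101). Rpl11 fell in the small intestine (−2.43 ± 0.80, −3.22 ± 0.81 and −2.22 ± 0.78) and was at −1.05 ± 0.74 in colon (adjusted p = 0.392). Both have many shared windows (6.16% of windows unique in Rpl5 and 37.8% in Rpl11) and low counts.

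Rps19, mutated in Diamond-Blackfan anaemia, was at 19.5, 17.9 and 40.8 CPM in Venus-positive and 443, 316 and 257 CPM in Venus-negative jejunum (−3.70 ± 0.39, adjusted p = 5.02e-08). Rpl13a, which also acts in translational silencing, fell in all 4 regions, from −3.83 ± 0.46 in jejunum to −1.32 ± 0.41 in colon (adjusted p = 0.0319). Rpsa, the small subunit protein also known as a laminin receptor, was at −1.45 ± 0.37, −2.35 ± 0.39 and −1.47 ± 0.37 in duodenum, ileum and colon, and −3.42 ± 0.41 in jejunum. Rps27a, made as a fusion with ubiquitin, was at −4.06 ± 0.63 in jejunum. Rps6, the substrate of the S6 kinases, fell in jejunum (−2.88 ± 0.69) and ileum (−3.38 ± 0.72) and was at −0.88 ± 0.64 in duodenum and −0.99 ± 0.64 in colon (adjusted p = 0.365 and 0.344).

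The genes with the most negative fold changes were Rpl10a in jejunum (−4.85 ± 0.77), Rps23 in ileum (−4.63 ± 1.19), Rpl28 in duodenum (−2.93 ± 0.94) and Rpl27 in colon (−2.27 ± 0.53). Each of these had at most 1454 counts over the 24 libraries. Among genes with more counts, Rpl37 had the most negative value in jejunum. It was at 3.58, 3.79 and 8.46 CPM in Venus-positive and 112, 85.1 and 60.4 CPM in Venus-negative cells, a 16.4-fold difference (−4.03 ± 0.39, adjusted p = 2.48e-08). At the other end, Rpl36 was at 0.48 ± 0.89 in duodenum, Rpl38 at 0.62 ± 0.97 and Rps27 at 0.42 ± 0.66 in colon, none of which passed the test (adjusted p = 0.76, 0.738 and 0.744).

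Some ribosomal proteins have a variant encoded by a paralog. For 3 such pairs both genes were tested, and the ratio of variant to parent counts within a library does not depend on library scaling. Rpl22l1 and its parent Rpl22, an RNA-binding protein of the large subunit that is not needed for general translation, moved unequally. Rpl22 fell in jejunum from 475, 301 and 284 CPM in Venus-negative to 35.2, 19.7 and 45.1 CPM in Venus-positive libraries (10.6-fold). Rpl22l1 fell from 35.1, 32.4 and 21.7 CPM to 10.7, 10.4 and 7.88 CPM (3.06-fold). The log2 ratio of Rpl22l1 to Rpl22 was −1.71 ± 0.798 in Venus-positive and −3.56 ± 0.300 in Venus-negative jejunum (SD, n = 3), −2.48 ± 0.663 and −3.66 ± 0.208 in ileum, −2.77 ± 0.186 and −3.27 ± 0.0654 in duodenum and −3.39 ± 0.200 and −4.10 ± 0.489 in colon. All 3 Venus-positive libraries lay above all 3 Venus-negative ones in each of the 4 regions. Averaged over the regions, the ratio was higher by 1.06 in Venus-positive cells (two-sided exact permutation test within regions, p = 1.25e-05, the smallest its 160000 arrangements allow; Benjamini-Hochberg adjusted over the 3 pairs, 3.75e-05).

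Rpl7l1, a paralog that acts in assembly of the ribosome, and Rpl7 differed by 0.845 on the log2 scale in jejunum (−2.00 ± 0.270 against −2.85 ± 0.0537), where the groups did not overlap, and by −0.0755 to 0.282 in the other 3 regions, where they did. The average difference was 0.332 (exact permutation test, p = 0.0321, adjusted 0.0481). Rps27l, a paralog induced by p53, and Rps27 showed no common direction, with differences of 1.13, −0.386, 1.13 and −0.733 in duodenum, jejunum, ileum and colon (average 0.285, exact permutation test, p = 0.397). Only 1.35% of the windows of Rps27 are unique, so that ratio rests on few Rps27 reads. The pairs were tested after the fold changes of their genes had been seen.

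**Figure D4:**
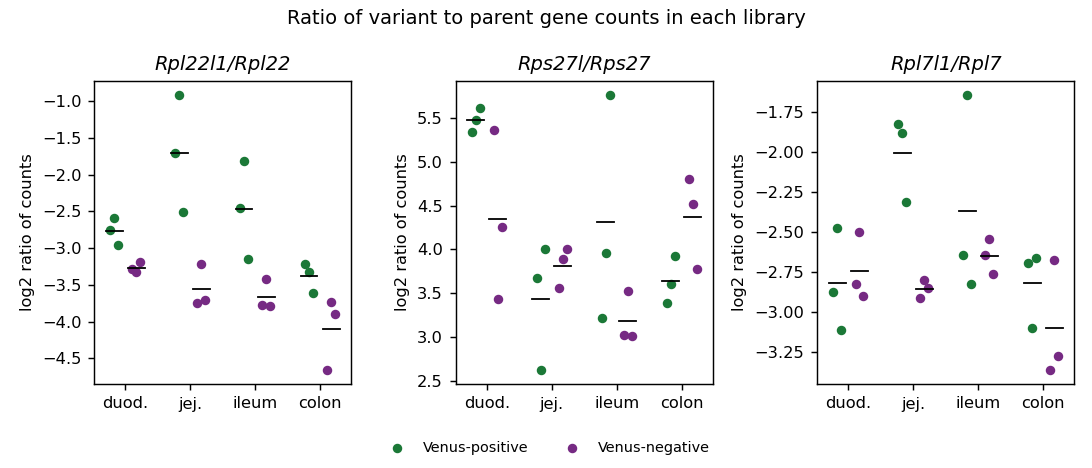
Log2 ratio of the counts of a variant paralog to its parent gene in each library, for 3 pairs, by region and sort, with lines at the group means. For Rpl22l1/Rpl22 all positive libraries lie above all negative ones in each region, and for the other pairs this holds for Rpl7l1/Rpl7 in jejunum alone.

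The size of the fall differed between regions. Against the mean of jejunum and ileum, the sort difference in duodenum was less negative for 34 of the 79 genes (43.0%), where 9.6% of all tested genes had a higher difference and 7.9% a lower one, and the members' median difference was 1.40 on the log2 scale. None had a lower one by edgeR or DESeq2, and none at an unadjusted p under 0.05. Named examples are Rpl37 (1.74 ± 0.42, adjusted p = 0.00407), Rps19 (1.56 ± 0.43, adjusted p = 0.0117), Rplp0 (1.54 ± 0.46, adjusted p = 0.0192) and Rps3 (1.46 ± 0.44, adjusted p = 0.0208). Of the 5 with the largest differences, Rpl10a (2.34 ± 0.80, adjusted p = 0.0402) and Rps6 (2.25 ± 0.80, adjusted p = 0.0496) passed the test, and Rps23, Rpl19 and Rps16 did not. The count was 16, 20 and 14 without duodenal Venus-negative replicate 1, 2 or 3, 6 without duodenal Venus-positive replicate 2, 22 without ileal Venus-negative replicate 3, 22 without jejunal Venus-negative replicate 1, and 21, 22 and 52 without jejunal Venus-positive replicate 1, 2 or 3.

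The mean sort difference of the 3 small intestinal regions was more negative than that of colon for 13 of the 79 genes (16.5%), where 2.75% of all tested genes had a lower difference and 1.38% a higher one. The median of the members was −1.16 and that of all genes −0.27. None had a higher one by edgeR or DESeq2, and none at an unadjusted p under 0.05. Rps21, a small subunit protein, gave −1.99 ± 0.45 (adjusted p = 0.00952). In colon Rps21 was at 43.4, 39.4 and 52.9 CPM in Venus-positive and 45.2, 82.0 and 63.4 CPM in Venus-negative libraries, which overlapped, whereas in jejunum it was at 7.67, 6.02 and 11.8 CPM against 136, 81.8 and 76.7 CPM. Rpl29, which can bind heparin, gave −2.12 ± 0.55 (adjusted p = 0.0266), Rpl34 −1.76 ± 0.45 (adjusted p = 0.025) and Rps19 −1.48 ± 0.41 (adjusted p = 0.036). This count depended on scaling and on single libraries. It was 1 with library totals, 4 with TMM computed without ribosomal protein and mitochondrial genes, 6 with RLE factors and 20 with DESeq2. Without colonic Venus-negative replicate 1, 2 or 3 it was 2, 4 and 8, without colonic Venus-positive replicate 2 or 3 it was 3 and 1, without jejunal Venus-negative replicate 1 it was 2, and without jejunal Venus-positive replicate 2 or 3 it was 5 and 33.

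Compared directly between regions, 63 of the 79 genes differed among the 4 Venus-positive groups (79.7%), where 43.3% of all tested genes did. The lowest of the 8 group means was that of Venus-positive jejunum for 65 of the 79 genes, and the highest Venus-positive level was in duodenum for 49 genes and in colon for 29. Among the 4 Venus-negative groups 1 of the 79 genes differed (1.27%), where 12.3% of all tested genes did, and 3 of them had an unadjusted p under 0.05. The gene was Rps27l, at 56.2 ± 3.74 CPM in duodenum, 53.4 ± 9.26 CPM in jejunum, 26.9 ± 11.7 CPM in ileum and 29.3 ± 3.85 CPM in colon (SD, n = 3 each, edgeR adjusted p = 0.0372). Its call was lost with RLE factors, with library totals, with TMM without these and mitochondrial genes, with at least 10 counts in every library, with protein-coding nuclear genes alone, and without any single Venus-negative library of duodenum or colon, ileal Venus-negative replicate 1 or 2, jejunal Venus-negative replicate 1 or colonic Venus-positive replicate 2. In each of those fits 0 of the members differed. Without ileal Venus-negative replicate 3 there were 5, and without duodenal Venus-positive replicate 2 or 3, ileal Venus-positive replicate 3, jejunal Venus-negative replicate 3 or jejunal Venus-positive replicate 3 there were 2.

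Other genes of translation were counted from lists chosen by function. Their counts stand beside the 8.08%, 25.6%, 20.6% and 3.8% of all tested genes that fell and the 8.88%, 18.3%, 17.9% and 9.31% that rose in duodenum, jejunum, ileum and colon, and their medians beside those of all genes, −0.16, −0.28, −0.27 and 0.00. Of 36 factors of ribosome assembly in the nucleolus, 9 fell in duodenum, 33 in jejunum, 35 in ileum and 15 in colon, with medians of −0.83, −2.81, −2.37 and −1.11. None of the 36 rose by edgeR, although 1 was higher in jejunum by DESeq2 and at an unadjusted p under 0.05. Nop56, a core protein of box C/D particles, was at 1.53, 2.96 and 3.21 CPM in Venus-positive and 17.2, 25 and 26.0 CPM in Venus-negative jejunum (−3.14 ± 0.32, adjusted p = 4.37e-08), and it fell in colon too (−1.92 ± 0.30, adjusted p = 6.87e-05). Gnl3, the nucleostemin GTPase, fell in duodenum (−1.46 ± 0.33, adjusted p = 0.00234), and Npm1, nucleophosmin, fell in duodenum (−1.39 ± 0.37, adjusted p = 0.00913) and colon (−1.78 ± 0.37, adjusted p = 0.00141).

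Of 10 elongation factors and other genes known for TOP mRNAs, 4 fell in duodenum, 8 in jejunum, 8 in ileum and 2 in colon, and none rose by edgeR or DESeq2 or at an unadjusted p under 0.05. Eef1b2, a subunit of the exchange factor of elongation, was at −3.33 ± 0.42 in jejunum (adjusted p = 4.34e-07) and −1.18 ± 0.39 in colon (adjusted p = 0.0429). Initiation factors had calls in both directions in each region. Of 30, 6 fell and 1 rose in duodenum, 18 fell and 2 rose in jejunum, 16 fell and 1 rose in ileum, and 4 fell and 1 rose in colon, with medians of −0.38, −1.11, −1.05 and −0.58. In each region the share that rose was below that of all tested genes. Eif3e, a subunit of the eIF3 complex, fell by 3.13 ± 0.38 on the log2 scale in jejunum (adjusted p = 2.4e-07). Of the 5 ribosomal proteins that the naming rule misses, 4 were tested, and Rack1, a scaffold on the small subunit, fell in jejunum (−3.44 ± 0.46), ileum (−2.07 ± 0.44) and colon (−1.27 ± 0.43, adjusted p = 0.0452).

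Of 17 regulators of ribosomal protein synthesis, 2 rose in duodenum, 1 rose and 3 fell in jejunum, 1 rose and 3 fell in ileum, and 1 fell in colon, with medians of 0.14, 0.06, −0.21 and 0.25. In jejunum and ileum both the share that rose and the share that fell were below those of all tested genes. Myc, the transcription factor that drives ribosome production, was at 0.575, 0 and 2.04 CPM in Venus-positive and 9.11, 18 and 12.6 CPM in Venus-negative jejunum (−3.98 ± 0.67, adjusted p = 1.88e-05). It fell in ileum (−4.80 ± 0.68) and colon (−1.87 ± 0.58, adjusted p = 0.0285), and in duodenum its difference was −0.62 (adjusted p = 0.486). Pdcd4 fell in jejunum (−1.84 ± 0.38, adjusted p = 0.000248) and ileum (−1.79 ± 0.38, adjusted p = 0.000407). Its differences in duodenum and colon were 0.12 ± 0.37 and −0.35 ± 0.37 (adjusted p = 0.857 and 0.601). Eef2k, the kinase that inhibits elongation, rose in duodenum (1.07 ± 0.34, adjusted p = 0.0263), jejunum (1.12 ± 0.33, adjusted p = 0.00676) and ileum (0.86 ± 0.33, adjusted p = 0.0368), and its difference in colon was 0.54 ± 0.33 (adjusted p = 0.314).

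The proteins of the mitochondrial ribosome, encoded by 78 other nuclear genes of which 77 were tested, are the family most like the members. Of these 46 fell in duodenum, 66 in jejunum, 60 in ileum and 2 in colon, with medians of −1.20, −2.05, −1.44 and −0.39. The share that fell was above that of all tested genes in the small intestine and below it in colon. None rose by either tool or at an unadjusted p under 0.05. The share of nuclear protein-coding counts that they took was 6.02 ± 1.60 times higher in Venus-negative than Venus-positive jejunum, where that of the cytosolic ribosomal proteins was 14.6 ± 7.36 times higher. In duodenum the ratios were 3.53 and 3.55, in ileum 4.09 ± 1.26 and 6.16 ± 2.89, and in colon 1.61 ± 0.484 and 2.36 ± 0.767, mitochondrial first. The difference between the families was not tested.

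**Figure D5:**
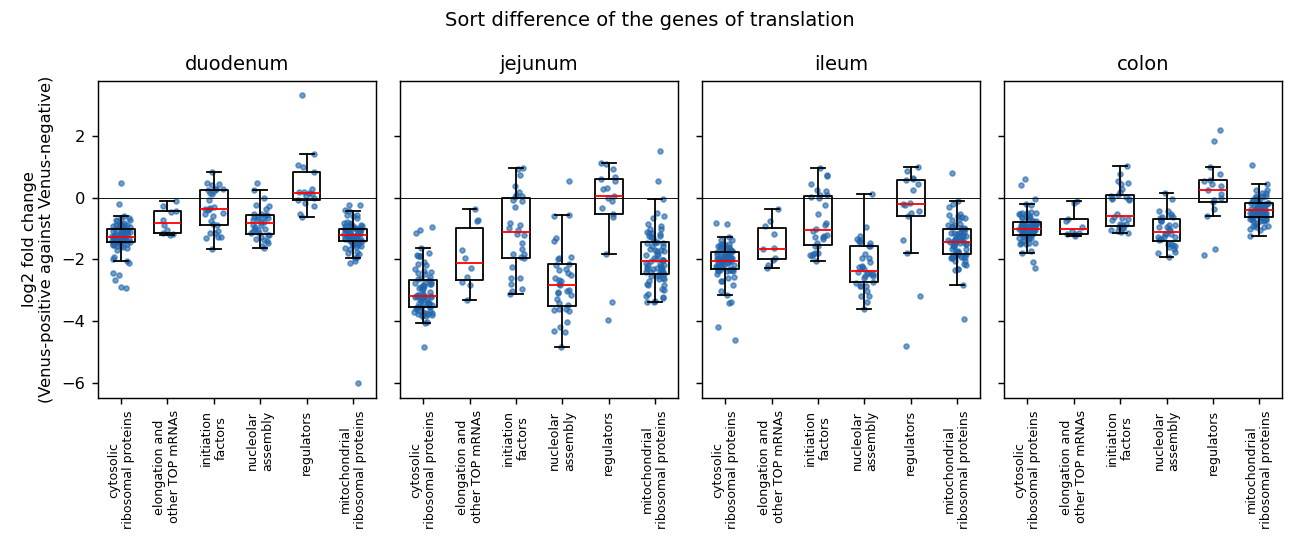
Log2 fold change of the tested genes of the cytosolic ribosome and 5 other groups of translation genes, Venus-positive against Venus-negative, by region, with boxes for the quartiles and red lines for the medians. In jejunum the medians are −3.19 for the cytosolic ribosomal proteins and −2.81 for nucleolar assembly, and the regulators have medians between −0.21 and 0.25 in the 4 regions.

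Markers of cell types and states moved with the sort. The summed level of 11 stem cell and proliferation markers was 513 to 1059 CPM in Venus-positive and 1787 to 2449 CPM in Venus-negative duodenum, 41.7 to 318 CPM against 1612 to 2597 CPM in jejunum, 131 to 237 CPM against 1189 to 3829 CPM in ileum and 72.5 to 85.6 CPM against 198 to 323 CPM in colon. Of these, 5 fell in duodenum, 11 in jejunum, 11 in ileum and 7 in colon, where 8.08%, 25.6%, 20.6% and 3.8% of all tested genes did. Mki67, a marker of dividing cells, fell in each region, by −1.59, −3.87, −3.21 and −1.38 on the log2 scale. The summed level of 8 enterocyte markers was 1843 to 4344 CPM against 1413 to 2038 CPM in duodenum, 23814 to 29424 CPM against 2143 to 2968 CPM in jejunum, 7842 to 14112 CPM against 556 to 929 CPM in ileum and 241 to 270.0 CPM against 71.5 to 117 CPM in colon. No gene of these 2 lists was at 0 in all libraries. The 8 goblet cell markers summed to a mean of 57602 CPM in Venus-positive and 387 CPM in Venus-negative duodenum, 3663 and 362 CPM in jejunum, 6947 and 353 CPM in ileum and 4607 and 1304 CPM in colon. The 6 Paneth cell markers were at 37631 against 398 CPM in duodenum, 7718 against 528 CPM in jejunum, 6857 against 316 CPM in ileum and 111 against 105 CPM in colon. The 9 enteroendocrine markers were at 39.7 against 1442 CPM, 49.3 against 1310.0 CPM, 35.9 against 440 CPM and 209 against 688 CPM in the same order, and the 5 tuft cell markers at 4.84 against 23.7 CPM, 3.66 against 24.7 CPM, 2.94 against 29.4 CPM and 12.9 against 30.9 CPM. The 6 colonocyte markers were at 50.9 against 68.1 CPM, 45.0 against 92.5 CPM, 105 against 34.2 CPM and 1735 against 394 CPM. The ranges of the sorts overlapped for the Paneth and tuft cell markers in colon, for the colonocyte markers in duodenum and jejunum and for the enterocyte markers in duodenum. The part of these cell types and states in the fall of the ribosomal protein genes was not tested.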

How the data were processed

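RNA of sorted cells was prepared by the authors with the SMARTer Pico kit and sequenced as single reads. The deposited file holds counts of uniquely mapped reads per Ensembl gene in 24 libraries, which the authors made with STAR 2.5.1 on GRCm38, per the labels and the submitters' processing notes; annotation and strand setting are not given in the sources used here. 4 lines that name no gene took 39.4% to 75.8% of reads and were left out. Reads mapped to several places made up 28.35% to 31.75% in Venus-positive and 19.63% to 24.34% in Venus-negative duodenum, and overlapped between sorts elsewhere. Reads on no gene were 19.5% to 24.79% against 13.59% to 16.99% in duodenum and 19.72% to 22.09% against 11.64% to 17.21% in jejunum. They overlapped in ileum and colon. The part of these reads in the results was not tested. Symbols came from GENCODE M21, which matched 53360 of 53465 IDs.

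Counts were tested with edgeR 4.0.16 (TMM, filterByExpr with a minimum count of 10 and a minimum total count of 15, quasi-likelihood F test, all 8 groups in a single fit, Benjamini-Hochberg adjustment over 15044 genes, threshold 0.05), after tests on simulated data. Contrasts were positive against negative cells per region, duodenum against jejunum and ileum, small intestine against colon, and a joint test of regions. DESeq2 1.42.0, other scalings and filters, the i5 index as a covariate, the compared libraries alone and each library left out were alternatives. CPM use the TMM-scaled library size. Paralog ratios used a pseudocount of 0.5 and a stratified exact permutation. A chi-square per degree of freedom of 24.8 to 166 over the 24 pairs of replicates within groups showed no library repeated within its group. Pairs across groups were not compared.

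Named members were, per comparison, the 5 highest and 5 lowest fold changes, the 5 largest differences between regions, the 5 highest and lowest levels per kilobase, variant paralogs with their parents, and members with known roles; in other lists, the 2 smallest p-values. Members and lists were chosen with earlier results of these data known. Sequences are from RefSeq (GRCm38.p6). The limit from a count of 0 covers counting error only.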

Additional observations from a re-analysis of the deposited data

Results flagged for a closer look

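The difference in the effect of the sort between regions was itself tested. Relative to jejunum and ileum, the fall in duodenum was smaller for 34 of 79 genes (43.0%) by edgeR's test of the interaction, where 9.6% of all tested genes had a higher difference and 7.9% a lower one. With 1 library left out this count was 6 to 52. Relative to colon, the fall in the small intestine was larger for 13 of 79 genes (16.5%), where 2.75% of all tested genes had a lower difference and 1.38% a higher one. That count was 1 with libraries scaled by their total alone and 1 to 33 with 1 library left out. Among the named members, Rpl10a differed by 2.34 on the log2 scale and Rps6 by 2.25 between duodenum and the other small intestinal regions. Rpl29 differed by −2.12 and Rps21 by −1.99 between small intestine and colon. Rpl10a, Rps6 and Rpl29 had 1454, 1252 and 1776 counts in all 24 libraries, against 18110 for Rps21.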

How the results depend on the processing

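No paired analysis was run, because the labels do not say which libraries share a mouse and the replicate numbers follow accession order. Libraries of the same replicate number did share traits. Replicate 2 had the lowest percentage of reads mapped to several places in each group. It also had the highest mitochondrial percentage in each group except Venus-negative jejunum. A fit blocked on replicate number was not run, so how the counts below would change under it is not known. In jejunum and ileum the members that fell stayed within 1.5 times the reported count under every alternative run. In duodenum the count was 8 with library totals alone, and between 15 and 55 with 1 library left out. In colon it was 37 with DESeq2, 34 with at least 10 counts in every library (52 members tested), 33 in a fit of the colon alone, and 3 to 26 with 1 library left out. The 34 differences of duodenum ranged from 6 to 52 with 1 library left out. The 13 differences of colon were 20 with DESeq2, 6 with RLE factors, 4 with TMM without members and mitochondrial genes, 1 with library totals, 20 without a filter, 8 with protein-coding nuclear genes alone, and 1 to 33 with 1 library left out. The single difference between Venus-negative regions became 2 with DESeq2 or without a filter, 0 with RLE factors, TMM without members and mitochondrial genes, at least 10 counts in every library, library totals or protein-coding nuclear genes alone, and 0 to 5 with 1 library left out. The median fold change in duodenum was −0.84 with library totals, and that in jejunum ranged from −3.67 to −2.81 with 1 library left out. With all counts on genes as the denominator, the ratio of shares was 1.69 in duodenum and 7.22 in jejunum. Of 5581 fold changes of named members under an alternative, 5178 kept direction and call, 264 lost and 128 gained the call and 11 changed sign, none of them called: Rps16 with library totals (0.25 in duodenum and 0.01 in colon) and, with 1 library left out, Rps16 in duodenum (range −2.87 to 0.61) and colon (−1.41 to 0.82), and in colon Rpl29 (−0.59 to 0.03), Rpl36 (−1.37 to 0.92) and Rps27l (−0.45 to 0.02). The causes were not tested. Rps16 had 126 counts in all, and members with few counts or few unique windows are the least certain.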
